A study of Mus musculus with 96 samples.

Results

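The proteasome is the large protease that takes apart proteins marked with ubiquitin. The genes described here were all protein-coding genes whose mouse name was Psm followed by a, b, c, d, e or f, a number and at most 1 further letter, and this rule gave 45 of the 56748 genes in the count table. They were 7 genes of the common outer ring, 10 of the inner rings with their immune versions, 6 ring ATPases, 11 other subunits of the cap, 3 assembly helpers of the cap base, 5 activators, 1 inhibitor and 2 genes known from testis or thymus.

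The study asked how daily fasting alters liver, skeletal muscle and cerebral cortex. Its methods described male C57BL/6 mice that ate chow freely (ad libitum, AL) or were kept from food for 16 hours of each day (intermittent fasting, IF) from 6 weeks of age for 4 months. Mice were killed and then perfused over some hours of the light phase, which the methods place at the end of the IF fast. Those hours ran past the stated end of the fast, so whether every IF mouse was still unfed is not given. AL mice had food at all times, while the food hours of IF mice lay in the light phase. A lasting effect of the schedule, the effect of the last fast and the shift in feeding hours therefore cannot be told apart. Libraries were made from poly-A RNA of whole tissue with a directional kit.

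The table held 16 male mice, numbered 1 to 8 for AL and 9 to 16 for IF, and 16 mice labelled female, numbered 25 to 32 for AL and 33 to 40 for IF. The methods described no female mice, so apart from the AL and IF labels the age, strain, hours of fasting, length of the schedule and handling of mice 25 to 40 are not given in the sources used here. Males and females were therefore fitted apart, and AL and IF were always different animals. Liver, muscle and cortex libraries carry the same mouse numbers, so those of 1 number were taken as 1 mouse. The sample titles do not state this link, and 1 cortex library, described below, did not match the sex of its number.

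As background, proteasome cores are barrels in which outer alpha rings gate the entry and inner beta rings carry the cutting sites. A cap with a ring of ATPases and a lid binds ubiquitin chains, removes them and threads the unfolded protein into the barrel, and other activators can take the place of that cap. In cells exposed to interferon, and in immune cells at rest, immune versions of the cutting subunits take over from the standard ones, which alters the peptides shown on class I molecules. In muscle, proteasomes supply amino acids from tissue protein during fasting.

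Tissue labels were checked against marker genes in AL males. Summed liver markers had a median of 55034 counts scaled to an library total of 1000000 (CPM) in liver, with Alb the most abundant at 33865 CPM, against 0.38 in muscle and 29.1 in cortex. The cortex sum came mostly from Ttr (28.2 CPM), which brain also makes in the choroid plexus. Muscle markers summed to 106940 CPM in muscle, 1.48 in liver and 20.6 in cortex, and cortex markers summed to 5633 CPM in cortex, 4.10 in liver and 0.381 in muscle. The labels therefore matched the RNA in all 3 tissues.

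Sex labels were checked with Xist, the RNA made from the silent X, and with 2 Y-linked genes. Of 96 libraries, 95 matched their label and 1 did not: the library labelled as cortex of AL male mouse 1 had 10219 Xist counts and 0 counts of Ddx3y and Eif2s3y together, while no other male library passed 25 Xist counts. That library was left out of every value below, which leaves 7 AL males in cortex and 8 mice in each other group. Library totals ran from 26097314 to 49838004 counts with a median of 36132954.

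Male liver had a median total of 36077591 counts in AL and 39189011 in IF, and female liver 39056284.5 and 31476903.5. The 10 most abundant genes took a median of 28.7 percent of an AL male liver library and 21.4 percent of an IF one, against 24.4 and 24.2 percent in females. All members together had a lowest, median and highest sum of 2424, 2881 and 3158 CPM in AL male liver and 3158, 3491 and 3879 CPM in IF male liver. In male muscle the sum had a median of 4784 CPM in AL and 5107 in IF, and in male cortex 3988 in AL and 3923 in IF.

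A low-count filter kept 44 members in the liver fits of diet and 43 in those of muscle and of cortex. Psmb11, the thymus version of the chymotrypsin-like subunit, had a median of 0 CPM in liver and muscle of AL males and 0.212 CPM in cortex. Psma8, the testis version of an alpha subunit, had medians of 0.357 CPM in liver, 0.0107 in muscle and 0.278 in cortex of AL males.

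Between genes, levels were compared as CPM per kilobase of exon, using medians of AL males. In liver the highest were Psmb5 and Psmb6, the chymotrypsin-like and caspase-like subunits, at 119 and 116 CPM per kilobase, followed by the ATPase Psmc5 at 94.0. The lowest of the core subunits in liver was Psmb7, the trypsin-like subunit, at 2.57 CPM per kilobase. Apart from the testis and thymus genes, only the assembly helpers Psmd10 (1.91) and Psmd5 (1.99) were below it. Muscle was led by Psmb5 at 190.2 and Psmc5 at 140.3 CPM per kilobase, and cortex by Psmc5 at 197 and Psmb5 at 126.

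In liver 1 subunit of the barrel, Psmb7, lay far below the rest. Over the 14 standard core genes, the standard deviation of log2 CPM per kilobase was 1.40 in AL male liver, 0.91 in muscle and 0.79 in cortex. The highest core gene exceeded the lowest 46.4-fold in liver, 7.99-fold in muscle and 6.12-fold in cortex on the same scale. Without Psmb7 the spread over the other 13 genes was 0.98 in liver, 0.94 in muscle and 0.75 in cortex, so the liver value rested largely on that gene. In IF male liver the spread of these 14 genes was 1.28, and Psmb5 exceeded Psmb7 25.1-fold. The 17 ATPases and other subunits of the cap spread by 1.16 in liver, 1.08 in muscle and 1.10 in cortex. These spreads and folds are descriptions and were not tested. They depend on the gene lengths of the count table, which were 899 bases for Psmb5 and 3421 for Psmb7.

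**Figure D1:**
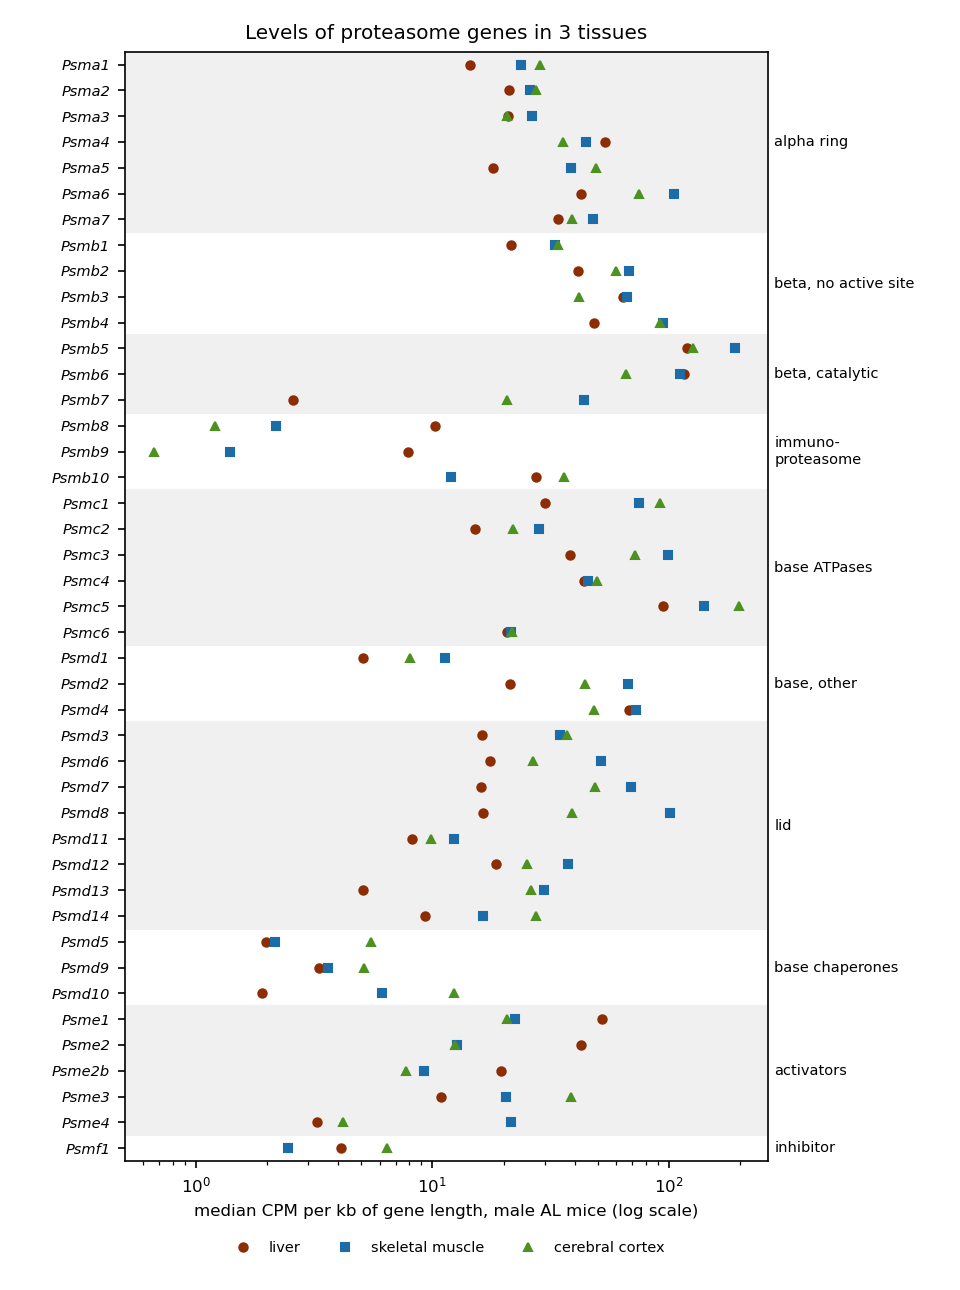
Median CPM per kilobase (log axis) of 43 members in liver, muscle and cortex of AL males, by role, without error bars. Psmb7 lay at 2.57 in liver and 20.6 in cortex, while Psmb5 was at 119 in liver and 190.2 in muscle.

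Muscle held more proteasome RNA than the other tissues in AL mice. Against liver, in males, 34 members were higher in muscle and 8 lower of 44 tested, where 38.8 percent of all genes were higher, 39 percent lower and 77.9 percent called in either direction. The 8 include Psma8 (-3.14, SE 0.74), which did not pass the low-count filter in the muscle fit of diet, so its call is not read as a result. All 8 lid subunits and all 6 ring ATPases were higher in muscle. The largest difference was in Psmb7, at 138, 149.7 and 171 CPM (lowest, median, highest) in muscle against 4.17, 8.81 and 18.3 CPM in liver. No muscle library came near a liver library for this gene, and the log2 difference was 4.34 (standard error, SE, 0.18, adjusted p = 4.29e-27). Psme4, the nuclear activator PA200, was higher by 2.90 (SE 0.10), and the lid subunit Psmd8 by 2.85 (SE 0.08) on the log2 scale.

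The immune versions went the other way. Psmb9, the interferon-inducible partner of Psmb6, was at 4.35, 5.11 and 6.92 CPM in AL male muscle and 22.5, 28.9 and 35 CPM in liver, with a log2 difference of -2.23 (SE 0.29, adjusted p = 2.47e-09). Psmb8, the immune counterpart of Psmb5, differed by -1.98 (SE 0.22), and Psmb10, that of Psmb7, by -0.94 (SE 0.12). Muscle and liver libraries did not overlap for any of these 3. The ring activators Psme1 and Psme2, which interferon also induces, were lower by -1.03 (SE 0.10) and -1.61 (SE 0.12). The inhibitor Psmf1 was lower too, at -0.56 (SE 0.07).

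Cortex and muscle differed across nearly the whole family. Of 44 members, 39 were higher in muscle and 4 lower, where 33.6 percent of all genes were higher, 45.3 percent lower and 78.9 percent called. Psme4 (3.31, SE 0.10) and Psmd8 (2.43, SE 0.09) led, and the members lower in muscle were Psmb10 (-0.58, SE 0.12), the assembly helper Psmd5 (-0.40, SE 0.09), Psmf1 (-0.40, SE 0.07) and Psma8 (-2.21, SE 0.75). Psma8 did not pass the low-count filter in the diet fits of muscle or of cortex. It entered this comparison only through the filter of the fit over 3 tissues, so its call is not read as a result. The median over members was 1.23 against -0.32 over all genes. Tissues of 1 number were taken to share an animal, and with that number as a block 42 members were called.

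Cortex against liver was mixed. Of 44 members, 13 were higher in cortex and 23 lower, where 46 percent of all genes were higher, 37.1 percent lower and 83.1 percent called. Psmb9 (-4.11, SE 0.34) and Psmb8 (-3.62, SE 0.25) were furthest down in cortex, followed by Psme2 (-2.50, SE 0.13) and Psme1 (-2.15, SE 0.11). Psmb7 (2.18, SE 0.17), Psmd10 (1.83, SE 0.12) and the lid subunit Psmd13 (1.58, SE 0.10) were furthest up.

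These tissue counts depended on the scaling between libraries. With library totals alone in place of TMM, the split became 31 higher and 9 lower for cortex against liver, so its direction turned. The same setting gave 22 and 12 for muscle against cortex and 28 and 9 for muscle against liver. It moved the median of all genes from 0.26 to 1.05, from -0.32 to -1.31 and from 0.00 to -0.17. The size of each difference between tissues therefore rests on the scaling.

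Females gave similar counts in their own fits. For muscle against liver, 31 members were higher and 9 lower (all genes: 40.6 percent higher, 37.9 percent lower, 78.5 percent called). For muscle against cortex, 38 were higher and 4 lower (34.7, 44.8 and 79.5 percent), and for cortex against liver 13 were higher and 18 lower (47.2, 36.7 and 83.9 percent). Library totals alone gave 29 and 12, 20 and 14, and 29 and 10 in that order, turning the last, with all-gene medians of -0.12, -1.11 and 0.88 in place of 0.04, -0.25 and 0.28. The lower counts include Psma8 for muscle against liver (-2.92, SE 0.64) and cortex against liver (-1.26, SE 0.54), with the same limit from the filter. Males and females were not compared on these differences.

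The immune share of each cutting pair was taken as the immune member over the sum of both, per kilobase. For Psmb8 with Psmb5 its median was 7.75 percent in AL male liver, 1.13 percent in muscle and 0.989 percent in cortex. For Psmb9 with Psmb6 it was 6.51, 1.23 and 1.01 percent. For Psmb10 with Psmb7 it was 92.2 percent in liver, 62.1 in cortex and 21.3 in muscle, so in liver RNA the trypsin-like pair was mostly Psmb10. These shares are of RNA, not of assembled particles, and were not tested. They rest on the gene lengths of the count table, such as 1705 bases for Psmb10 and 3421 for Psmb7. Whether those lengths match the RNA made in each tissue was not tested. By CPM without lengths, the AL male median of Psmb10 was above that of Psmb7 in liver and below it in cortex and muscle.

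Fasting moved liver proteasome RNA in males in both directions. Of 44 members tested, 16 rose and 10 fell, where 23.5 percent of all genes rose, 21.1 percent fell and 44.6 percent were called. The members' count is thus above that share for the rising direction and near it for the falling one, and nothing particular to the family was tested. The median log2 change of the members was 0.11, against 0.06 over all 16204 genes tested. Called means an adjusted p under 0.05 over all genes in edgeR, and changes are IF over AL. Whether a change came from fewer cells of a type or from less RNA per cell cannot be told apart in whole tissue.

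In 12 of the 44 members the CPM of AL and IF male liver libraries did not overlap at all, where 14.6 percent of all genes did not. IF libraries lay above AL ones in 11: the core subunits Psmb1 and Psmb4, the immune subunit Psmb10, the ATPases Psmc1 and Psmc3, the lid subunits Psmd3, Psmd8 and Psmd13, the assembly helpers Psmd9 and Psmd10, and the activator Psme4. They lay below in 1, the ATPase Psmc6.

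The lid held the largest change. Psmd13, a structural subunit of the lid, was at 10.1, 17.2 and 23.7 CPM (lowest, median, highest) in AL and 61.9, 73.2 and 86.7 CPM in IF. Every IF mouse was far above every AL mouse, and the log2 change was 2.0 (SE 0.13, adjusted p = 4.27e-11). Psmd8, a lid subunit that joins late in lid assembly, went from 40.9, 50.3 and 61.1 CPM to 90.2, 107 and 126 CPM. Its groups stood well apart, with a log2 change of 1.02 (SE 0.11, adjusted p = 5.05e-08). Psmd3 rose by 0.64 (SE 0.09), while Psmd14, the enzyme that strips ubiquitin chains at the cap, fell by 0.39 (SE 0.11, adjusted p = 0.00546). Of 8 lid subunits, 3 rose and 1 fell, and Psmd6, Psmd7, Psmd11 and Psmd12 did not pass, with values from -0.21 to 0.24.

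The ring ATPases, which unfold the substrate, split within 1 ring. Psmc1 was at 40.5, 57.9 and 64.0 CPM in AL and 116, 122 and 132 CPM in IF, with no overlap. It rose by 1.05 on the log2 scale (SE 0.10, adjusted p = 1.50e-08). Psmc6 went the other way, from 58.8, 72.5 and 80.3 CPM to 45.6, 50.1 and 55 CPM. All 8 IF mice were below the lowest AL mouse, and the gene fell by 0.59 (SE 0.08, adjusted p = 2.68e-06). Psmc3 rose by 0.44 (SE 0.11), Psmc2 fell by 0.38 (SE 0.10), Psmc5 fell by 0.29 (SE 0.11, adjusted p = 0.043) and Psmc4 was not called at -0.04 (SE 0.09).

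The 3 other base subunits split as well. Psmd1, a scaffold of the base, fell by 0.46 (SE 0.10, adjusted p = 0.000615). Psmd2, a scaffold that docks ubiquitin carriers, rose by 0.38 (SE 0.12, adjusted p = 0.0116), and the ubiquitin receptor Psmd4 was not called at 0.17 (SE 0.12).

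Among the 3 helpers that build the base, 2 rose. Psmd9 was at 18.8, 24.1 and 29.4 CPM in AL and 60.4, 75.5 and 78.6 CPM in IF. No library of one diet reached the range of the other, and the log2 change was 1.48 (SE 0.11, adjusted p = 2.78e-10). Psmd10, also called gankyrin, was at 2.28, 2.80 and 3.91 CPM in AL and 4.73, 6.67 and 7.52 CPM in IF. Its groups were also apart, with a change of 1.03 (SE 0.18, adjusted p = 3.74e-05). Psmd5 was not called at 0.24 (SE 0.12).

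In the beta rings, subunits without a cutting site moved both ways. Psmb4 was at 68.6, 94.4 and 125 CPM in AL and 209, 226 and 274 CPM in IF. The lowest IF mouse was above the highest AL mouse by a wide margin, and the log2 change was 1.16 (SE 0.12, adjusted p = 4.29e-08). Psmb3 was at 123, 147 and 172 CPM in AL and 90.2, 109 and 132 CPM in IF, so its groups overlapped. It fell by 0.52 (SE 0.13, adjusted p = 0.00176). Psmb1 rose by 0.79 (SE 0.12), and Psmb2 was not called at -0.21 (SE 0.13).

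Of the 3 standard cutting subunits, 2 rose. Psmb7 was at 4.17, 8.81 and 18.3 CPM in AL and 12.6, 22.1 and 25.2 CPM in IF. The groups overlapped through AL mouse 1, the highest of its group, and the log2 change was 1.13 (SE 0.25, adjusted p = 0.000975). Psmb5 went from 80.3, 107 and 127 CPM to 119.9, 146 and 159.6 CPM, with overlap at the edges. It rose by 0.37 (SE 0.13, adjusted p = 0.0263). Psmb6, the caspase-like subunit, was at 189.8, 217 and 252 CPM in AL and 213, 247 and 296 CPM in IF. Its groups overlapped broadly, and the change of 0.09 was not called (SE 0.12, adjusted p = 0.551).

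The 3 immune cutting subunits did 3 different things. Psmb10 was at 31.9, 46.8 and 53.2 CPM in AL and 57.7, 83.6 and 142 CPM in IF. IF mice were all above AL mice, and the gene rose by 0.92 (SE 0.15, adjusted p = 3.12e-05). Psmb9 was at 22.5, 28.9 and 35 CPM in AL and 5.88, 8.56 and 51.6 CPM in IF. All IF mice but mouse 16 lay below all AL mice, and mouse 16 lay above them all. The gene fell by 1.10 (SE 0.42, adjusted p = 0.0435). Psmb8 was at 26.8, 34.6 and 39.8 CPM in AL and 26.6, 35 and 108 CPM in IF, the highest again from mouse 16, and was not called at 0.22 (SE 0.24, adjusted p = 0.494).

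Mouse 16 stood apart in other immune genes too. Among IF male livers it was highest in Tap1 (114 CPM), the peptide transporter, and in Nlrc5 (62.5 CPM), the activator of class I genes. It was also highest in the leukocyte genes Ptprc (20.4 CPM) and Laptm5 (80.6 CPM). Its 10 leukocyte markers summed to 313 CPM, against 83.8 to 139 CPM in the other IF males. Without this library Psmb9 fell by 1.76 (SE 0.17, adjusted p = 1.7e-08) and Psmb8 was at -0.14 (adjusted p = 0.351).

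Among the activators, Psme1, a subunit of the interferon-inducible ring PA28, went from 101, 115 and 136 CPM to 68.8, 77.6 and 134 CPM. The groups overlapped, and the gene fell by 0.55 (SE 0.12, adjusted p = 0.000579). Its partner Psme2 was not called at -0.09 (SE 0.12), nor was Psme2b, a near copy of Psme2, at 0.22 (SE 0.16). Psme4 went from 22.6, 27.3 and 37 CPM to 40.3, 48.8 and 53.0 CPM without overlap. It rose by 0.64 (SE 0.10, adjusted p = 1.13e-05). Psme3, the nuclear ring activator, fell by 0.23 (SE 0.09, adjusted p = 0.0462), and the inhibitor Psmf1 was not called at 0.12 (SE 0.09).

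In the outer alpha ring, which gates the barrel, 2 of 7 genes rose and 1 fell. Psma6 rose by 0.48 (SE 0.14, adjusted p = 0.00567) and Psma5 by 0.42 (SE 0.15, adjusted p = 0.0282), while Psma3 fell by 0.30 (SE 0.09, adjusted p = 0.013). Psma1, Psma2, Psma4 and Psma7 were not called, with values from -0.23 to 0.11. Psma8 was not called either at -0.10 (SE 0.61).

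**Figure D2:**
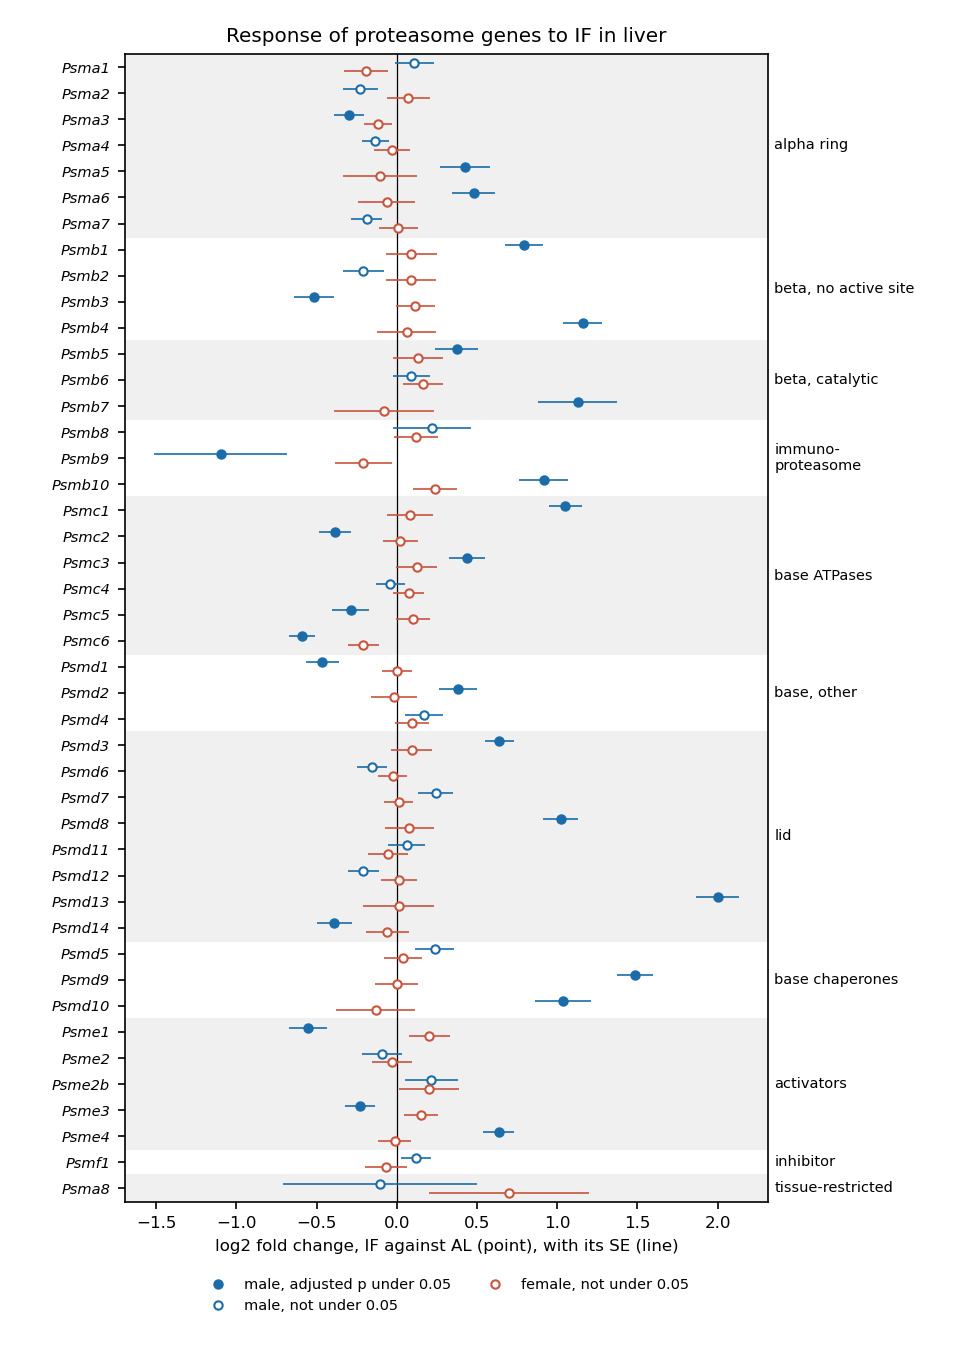
Log2 change, IF over AL, of 44 members in liver by role, with bars of 1 standard error; blue is males (filled where adjusted p was under 0.05) and red is females (n = 8 per group). Psmd13 was at 2.0 in males and 0.01 in females, and Psmb9 had the widest bar among the called male values (SE 0.42).

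Of the 26 calls in male liver, 21 held whichever library was left out and 5 did not. Psmb9 lost its call without any of the 15 libraries other than IF mouse 16, with adjusted p up to 0.0766. Psmb5 lost it without AL mouse 2, 4 or 5 or IF mouse 10, 11 or 15 (adjusted p up to 0.0696). Psma5 lost it without AL mouse 2, 3 or 4 or IF mouse 11, 14 or 16 (adjusted p up to 0.0712). Psmc5 lost it without AL mouse 1, 3, 6 or 7 or IF mouse 12, 13, 15 or 16 (adjusted p up to 0.0886). Psme3 lost it without any AL mouse but mouse 4, or without IF mouse 12, 15 or 16 (adjusted p up to 0.0961).

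Scaling by library totals alone gave 18 members up and 6 down, moving the split by over 10 points, with an all-gene median of 0.15 in place of 0.06. Of all 16204 genes tested, 4402 were then up and 2694 down, so the lean to rises was shared by the whole table. Counting only called changes of at least 1.5-fold left 11 up and 2 down, where 2579 of all genes were up and 2334 down.

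Markers of other cells moved with diet in male liver. Erythrocyte markers summed to 362, 569 and 956 CPM in AL and 667, 2070 and 6879 CPM in IF, and 3 of 5 rose. IF mice 9 (6879 CPM), 10 (4344 CPM) and 16 (3033 CPM) were highest, and the most abundant genes were Hba-a1 in AL (312 CPM) and Hbb-bs in IF (907 CPM). Endothelial markers summed to 39.9, 44.2 and 60.1 CPM in AL and 64.3, 75.4 and 113 CPM in IF. Of these, 2 of 4 rose (Tek not without IF mouse 9, at 0.39, adjusted p = 0.0639), and Kdr was the most abundant at 14.9 and 33.2 CPM.

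Leukocyte markers summed to 65.2, 80.5 and 113 CPM in AL and 83.8, 111 and 313 CPM in IF, with Csf1r the most abundant at 27.1 and 30 CPM. Only Laptm5 of 10 rose (1.87, SE 0.32). None of the markers in these 3 lists had a median of 0. With the mean log2 CPM of the erythrocyte genes as a covariate, added after the data were seen, 11 members rose and 3 fell, where 24.7 percent of all genes were called. With that of the leukocyte genes, 13 rose and 9 fell, where 38.7 percent of all genes were called. Beyond these fits, their part in the result was not tested.

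**Figure D3:**
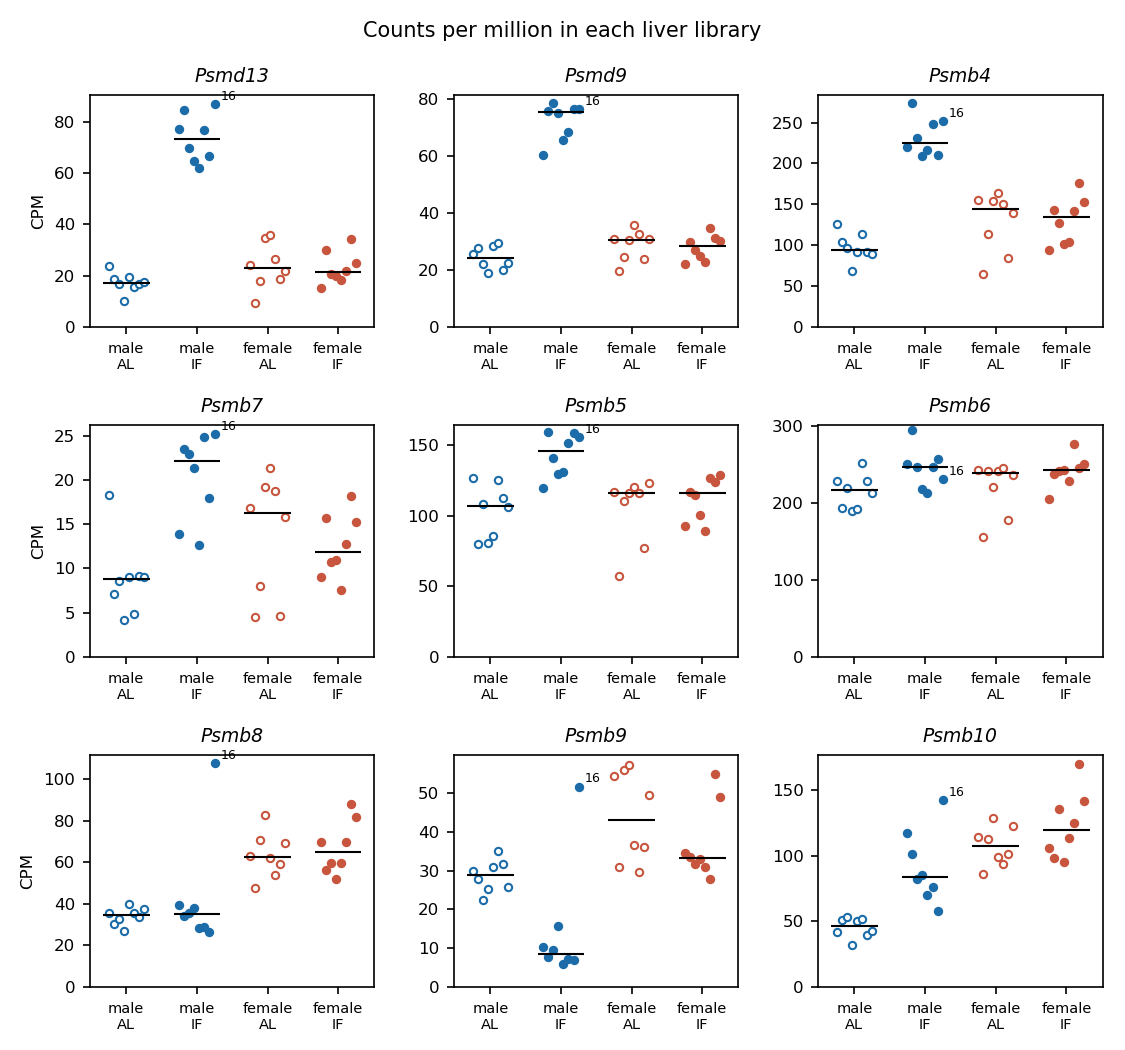
CPM in each liver library for 9 members in AL and IF males and in AL and IF females (n = 8 each), with bars at the median and IF mouse 16 marked. Psmd13 had medians of 17.2 and 73.2 in males but 22.9 and 21.3 in females.

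Neighbouring genes overlap many members, and reads shared by overlapping genes are assigned by rules not given in the sources used here. Of the 45 members, 28 overlapped another annotated gene and 17 none. Psmd9 overlaps Hpd, an abundant enzyme of tyrosine breakdown, on the other strand, and Hpd went from a median of 2024 to 3749.6 CPM (log2 change 0.80). Another gene opposite Psmd9, Gm43409, fell from 2.98 to 1.71 CPM (-0.97, adjusted p = 0.0069). Psmd13 lies opposite Sirt3, a mitochondrial deacetylase, which went from 62.3 to 75.6 CPM (0.30). On the strand of Psmd13 itself, Gm15542 went from 1.80 to 2.80 CPM (0.58, adjusted p = 0.045). Psmb7 lies opposite the kinase gene Nek6, which moved the other way, from 58.7 to 27.4 CPM (-1.19). Psmb9 lies opposite Tap1, at 44.1 and 30.4 CPM (-0.39, not called), which fell by 0.90 (SE 0.16, adjusted p = 9.3e-05) without IF mouse 16.

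In female liver no member was called. Psmd13 was at 9.45, 22.9 and 35.9 CPM in AL females and 15, 21.3 and 34.2 CPM in IF females. The ranges almost coincided, and the log2 change was 0.01 (SE 0.22, adjusted p = 0.998). Psmd9 was at 19.8, 30.7 and 35.8 CPM in AL and 22.1, 28.4 and 34.8 CPM in IF, again with full overlap and a change of 0.00 (SE 0.13). Psmb4 was at 64.8, 144.5 and 164 CPM and at 94.2, 134 and 176 CPM, with a change of 0.06 (SE 0.19).

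The cutting subunits of females were also close between diets. Psmb7 was at 4.50, 16.3 and 21.4 CPM in AL and 7.57, 11.9 and 18.2 CPM in IF, with complete overlap and a change of -0.08 (SE 0.31). Psmb9 was at 29.7, 43.1 and 57.3 CPM in AL and 27.8, 33.3 and 54.8 CPM in IF, with a change of -0.21 (SE 0.18). Neither gene separated the diets. Psmb10 was at 86.1, 107 and 129 CPM in AL and 95.4, 119 and 170.2 CPM in IF, with a change of 0.24 (SE 0.14). Psmb5 was at 57.1, 116.2 and 123 CPM in AL and 89.4, 116.03 and 129 CPM in IF, with a change of 0.13 (SE 0.16), and its medians coincided. Psmb6 was at 157, 239 and 246 CPM in AL and 205, 243 and 278 CPM in IF, with a change of 0.16 (SE 0.12). Psmb8 was at 47.8, 62.3 and 82.5 CPM in AL and 52.0, 64.7 and 87.9 CPM in IF, with a change of 0.12 (SE 0.14). All of these ranges overlapped. AL females had Psmb10 above the range of AL males, though males and females were not tested against each other on level.

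In edgeR 0 of 44 members were called in female liver, where 0 percent of all 15938 genes were, with 1 member (Psmc6) at an unadjusted p under 0.05 and 0 called by DESeq2. Erythrocyte markers had a median sum of 522 CPM in AL (115 to 1113 CPM) and 512 CPM in IF (261 to 1030.7 CPM), leukocyte markers 144 (115 to 588 CPM) and 137 CPM (87.4 to 329 CPM), and endothelial markers 48.5 (39.5 to 55 CPM) and 38.6 CPM (19.5 to 67.1 CPM). The leukocyte sums of AL mouse 28 (588 CPM) and IF mouse 34 (329 CPM) were both above that of male IF mouse 16.

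The difference between the sexes in the liver response was tested directly. Of 44 members, 18 differed: 7 had a higher and 11 a lower log2 change in females, where 12.8 percent of all genes were higher, 10.9 percent lower and 23.7 percent called. Psmd13 differed by -1.96 (SE 0.27, adjusted p = 1.75e-06), Psmd9 by -1.45 (SE 0.17, adjusted p = 1.12e-07) and Psmb4 by -1.07 (SE 0.23, adjusted p = 0.000662). Psmb7 differed by -1.18 (SE 0.43, adjusted p = 0.0439), Psmb10 by -0.65 (SE 0.22, adjusted p = 0.0252) and Psmc1 by -0.93 (SE 0.18, adjusted p = 0.000144).

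Of the 10 members that fell in males, 7 differed the other way. The 10 were chosen by their fall in the same male libraries, which favours differences in this direction, so this count is only a description. Psme1 differed by 0.79 (SE 0.18), Psmb3 by 0.66 (SE 0.18), Psmd1 by 0.50 (SE 0.13) and Psmc6 by 0.42 (SE 0.12). The 3 others were not called: Psmb9 at 0.93 (SE 0.46, adjusted p = 0.149), Psmd14 at 0.36 (SE 0.17, adjusted p = 0.124) and Psma3 at 0.21 (SE 0.12, adjusted p = 0.206). The value of Psmb9 includes IF mouse 16. In the fit of males alone, its change was -1.10 with that library and -1.76 (SE 0.17) without it. Among cutting subunits, also not called were Psmb5 at -0.21 (SE 0.21), Psmb6 at 0.11 (SE 0.17) and Psmb8 at -0.06 (SE 0.28). Library totals alone gave 3 higher and 15 lower, with an all-gene median of -0.21 in place of -0.04. Sex is confounded with whatever else set mice 25 to 40 apart, so the 2 cannot be told apart.

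Male muscle changed little. Of 43 members tested, 0 rose and 2 fell, where 11.6 percent of all genes fell and 23 percent were called. Psmb5 was at 133, 171 and 187 CPM in AL and 119.6, 159 and 166 CPM in IF, with broad overlap, and fell by 0.22 (SE 0.08, adjusted p = 0.0423). Psmb3 was at 140, 153 and 168 CPM in AL and 116, 139 and 164 CPM in IF, also overlapping, and fell by 0.20 (SE 0.06, adjusted p = 0.0238). Only 1 member had groups without overlap, the base scaffold Psmd2 with IF above AL, where 4.17 percent of all genes had none, and it was not called at 0.11 (SE 0.05).

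Both muscle calls were fragile. Library totals alone gave 8 members up and 0 down, so the direction turned. The mean log2 TMM factor was -0.036 in AL and 0.036 in IF, and dropping it moves all genes of a library alike. The turn is therefore not particular to the members. Psmb5 lost its call without AL mouse 1, 2, 3, 5 or 6 or IF mouse 11, 15 or 16 (adjusted p up to 0.0937). Psmb3 lost it without AL mouse 1 or 2 or IF mouse 16 (adjusted p up to 0.0535). Without AL mouse 8 there were 5 calls (2 up, 3 down), and without IF mouse 10 there were 4 (1 up, 3 down).

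The genes that led in liver were not called in male muscle. Psmd13 was at -0.12 (SE 0.06), Psmd9 at -0.07 (SE 0.06), Psmb4 at -0.01 (SE 0.06) and Psmb7 at -0.16 (SE 0.06, adjusted p = 0.0576).

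The other cutting subunits of male muscle overlapped between diets and were not called. Psmb7 was at 138, 149.7 and 171 CPM in AL and 129.9, 139 and 167 CPM in IF. Psmb6 was at 175, 209 and 233 CPM in AL and 161, 205 and 211 CPM in IF, with a change of -0.13 (SE 0.07). Both ranges thus sat slightly lower in IF, with most mice in common ground.

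Their immune versions were low in muscle. Psmb8 was at 5.10, 7.38 and 9.15 CPM in AL and 2.97, 6.71 and 11.9 CPM in IF, with a change of -0.03 (SE 0.22). Psmb9 was at 4.35, 5.11 and 6.92 CPM in AL and 2.68, 4.41 and 9.51 CPM in IF, with a change of -0.19 (SE 0.19). In both genes the IF mice reached further up and further down than the AL mice. Psmb10 was at 17.1, 20.4 and 22.2 CPM in AL and 12.3, 19.4 and 22.7 CPM in IF, also overlapping, with a change of -0.21 (SE 0.09).

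Male cortex showed no called member. In edgeR 0 of 43 were called, where 7.21 percent of all genes were, with 6 members at an unadjusted p under 0.05 and 1 called by DESeq2. Psmd2 came nearest at 0.17 (SE 0.05, adjusted p = 0.0553). Psmd13 was at 0.13 (SE 0.05) and Psmd9 at -0.01 (SE 0.06).

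The cutting subunits of male cortex overlapped between diets and were not called. Psmb5 was at 95.2, 113 and 123 CPM in AL and 103, 112 and 124 CPM in IF (0.02, SE 0.07). Psmb6 was at 98.9, 124 and 142 CPM in AL and 111, 121 and 147 CPM in IF (0.03, SE 0.08). Psmb7 was at 60.4, 70.5 and 75.4 CPM in AL and 60.7, 70.3 and 75.3 CPM in IF (0.03, SE 0.06). The ranges of the 2 diets coincided for Psmb7 and overlapped for the others.

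Immune versions in male cortex also overlapped. Psmb8 was at 3.27, 4.10 and 7.28 CPM in AL and 3.66, 4.23 and 5.35 CPM in IF (-0.11, SE 0.16). Psmb9 was at 1.97, 2.44 and 4.67 CPM in AL and 1.92, 2.56 and 3.47 CPM in IF (-0.11, SE 0.19). In both the highest mouse was an AL one. Psmb10, at 47.6, 61.4 and 74.6 CPM in AL and 56.9, 64.3 and 71.6 CPM in IF (0.07, SE 0.08), was the immune member with the most RNA per kilobase relative to its standard partner.

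In female muscle, edgeR called 0 of 43 members, where 0.00653 percent of all genes (1 gene) were called, with 4 members at an unadjusted p under 0.05 and 1 called by DESeq2. Psmd9 was at 0.27 (SE 0.07, adjusted p = 0.201) and Psmd13 at 0.22 (SE 0.07, adjusted p = 0.309).

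The cutting subunits of female muscle overlapped between diets. Psmb5 was at 109, 124 and 166 CPM in AL and 123, 132 and 168 CPM in IF (0.16, SE 0.09). Psmb6 was at 125, 146 and 198 CPM in AL and 145, 157 and 206 CPM in IF (0.14, SE 0.11). Psmb7 was at 130.02, 147 and 180.4 CPM in AL and 139.6, 150.1 and 200.45 CPM in IF (0.08, SE 0.09). Each range lay a little higher in IF with a long common stretch.

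The immune versions were low in female muscle too. Psmb8 was at 4.98, 8.74 and 12.5 CPM in AL and 2.48, 6.21 and 13.7 CPM in IF (-0.17, SE 0.29). Psmb9 was at 3.21, 5.74 and 7.72 CPM in AL and 2.36, 4.38 and 8.15 CPM in IF (-0.15, SE 0.23). Psmb10 was at 11.9, 18.0 and 22.0 CPM in AL and 13.3, 15.6 and 22.5 CPM in IF (-0.03, SE 0.13). IF mice again spanned the AL range in the former 2.

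In female cortex, edgeR called 0 of 43, where 0.0109 percent of all genes (2 genes) were, with 2 members at an unadjusted p under 0.05 and 0 called by DESeq2. Psmb5 was at 94.1, 127 and 135 CPM in AL and 92.7, 104 and 129 CPM in IF (-0.19, SE 0.09). Psmb6 was at 105, 132 and 146 CPM in AL and 105, 112 and 138 CPM in IF (-0.14, SE 0.09). Their ranges overlapped, with IF medians below AL ones. Psmb7 was at 69.8, 78.2 and 86.9 CPM in AL and 65.9, 72.3 and 94.7 CPM in IF (-0.05, SE 0.07), the highest value from IF mouse 38.

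Immune versions in female cortex overlapped as well. Psmb8 was at 4.33, 6.02 and 7.95 CPM in AL and 4.35, 5.16 and 6.44 CPM in IF (-0.23, SE 0.13). Psmb9 was at 2.78, 3.65 and 4.72 CPM in AL and 2.32, 3.45 and 4.49 CPM in IF (-0.14, SE 0.14). Psmb10 was at 54.9, 78.0 and 89.3 CPM in AL and 55.6, 63.6 and 78.3 CPM in IF (-0.25, SE 0.10, adjusted p = 0.389). IF medians were below AL medians in all 3, and none was called.

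The sexes were also compared on the muscle response. Of 43 members, 6 had a higher log2 change in females and 0 a lower one, where 7.38 percent of all genes were higher and 14.2 percent called. They were Psmb5 (0.40, SE 0.13), Psmd9 (0.36, SE 0.09), Psmd13 (0.35, SE 0.10), Psmb3 (0.33, SE 0.11), the alpha subunit Psma7 (0.30, SE 0.09) and Psme3 (0.24, SE 0.08). With library totals alone 0 were higher and 5 lower, so the direction turned, and the median of all genes moved from -0.01 to -0.17. In cortex edgeR called 0 of 45 members, where 2.03 percent of all genes were called, with 4 at an unadjusted p under 0.05 and 0 called by DESeq2.

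Responses of 2 tissues in males were tested against each other too. For muscle against liver, 23 of 44 members differed, 9 with a higher and 14 with a lower log2 change in muscle, where 17 percent of all genes were higher, 16.6 percent lower and 33.7 percent called. For cortex against liver, 24 differed, 10 higher and 14 lower, where 14.5 percent were higher, 15.7 percent lower and 30.1 percent called. Psmd13 differed by -2.07 (SE 0.13) and -1.84 (SE 0.13), and Psmd9 by -1.51 (SE 0.11) and -1.47 (SE 0.11). These 2 comparisons share the liver libraries, so their likeness is not counted as a finding.

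Library totals alone gave 6 higher and 16 lower for muscle against liver and 4 and 17 for cortex against liver, moving both splits by over 10 points and the latter all-gene median from -0.03 to -0.15. A change of scaling moves all genes of a library alike, so neither move is particular to the members. In females edgeR called 0 of 44 for each contrast, where 0.0611 percent (muscle) and 0.0564 percent (cortex) of all genes were called, with 2 members at an unadjusted p under 0.05 and 0 called by DESeq2 in each.

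Immune shares of liver also differed between groups as a description. Psmb9 with Psmb6 had a median share of 6.51 percent in AL males and 1.70 percent in IF males, where mouse 16 reached 10.2 percent, and 9.52 and 6.60 percent in AL and IF females. Psmb8 with Psmb5 had 7.75 and 5.87 percent in males and 13.8 and 13.6 percent in females. Psmb10 with Psmb7 stayed high in every liver group, with medians from 89.3 to 95 percent.

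How members varied together was described in female liver, where no member was called for diet. Pearson correlations were taken over 16 libraries after subtracting group means, on log2 values that share each library's depth and composition. The 120 pairs of genes that both rose in male liver had a median correlation of 0.867, all of them positive. The 45 pairs that both fell had a median of 0.388, and the 160 mixed pairs 0.436. In male liver itself the medians were 0.539, 0.176 and 0.306. The tightest female pair was Psma6 with Psmb4 at 0.97, and the tightest male one was Psmb8 with Psmb9 at 0.934, which was 0.663 without IF mouse 16.

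Pairs within a role were also set beside pairs across roles. Pairs of the same role (92) had a median of 0.649 in female liver and pairs of different roles (811) 0.585. In male liver the medians were 0.38 and 0.298, in male muscle 0.301 and 0.169, and in male cortex 0.424 and 0.295. The tightest pair of male muscle and of male cortex was Psmb5 with Psmb6, at 0.923 and 0.955, and that of female cortex was Psmb4 with Psmb6 at 0.979. No p was computed for any of these, and pairs of other genes were not measured, so nothing here is shown to be particular to the family.

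**Figure D4:**
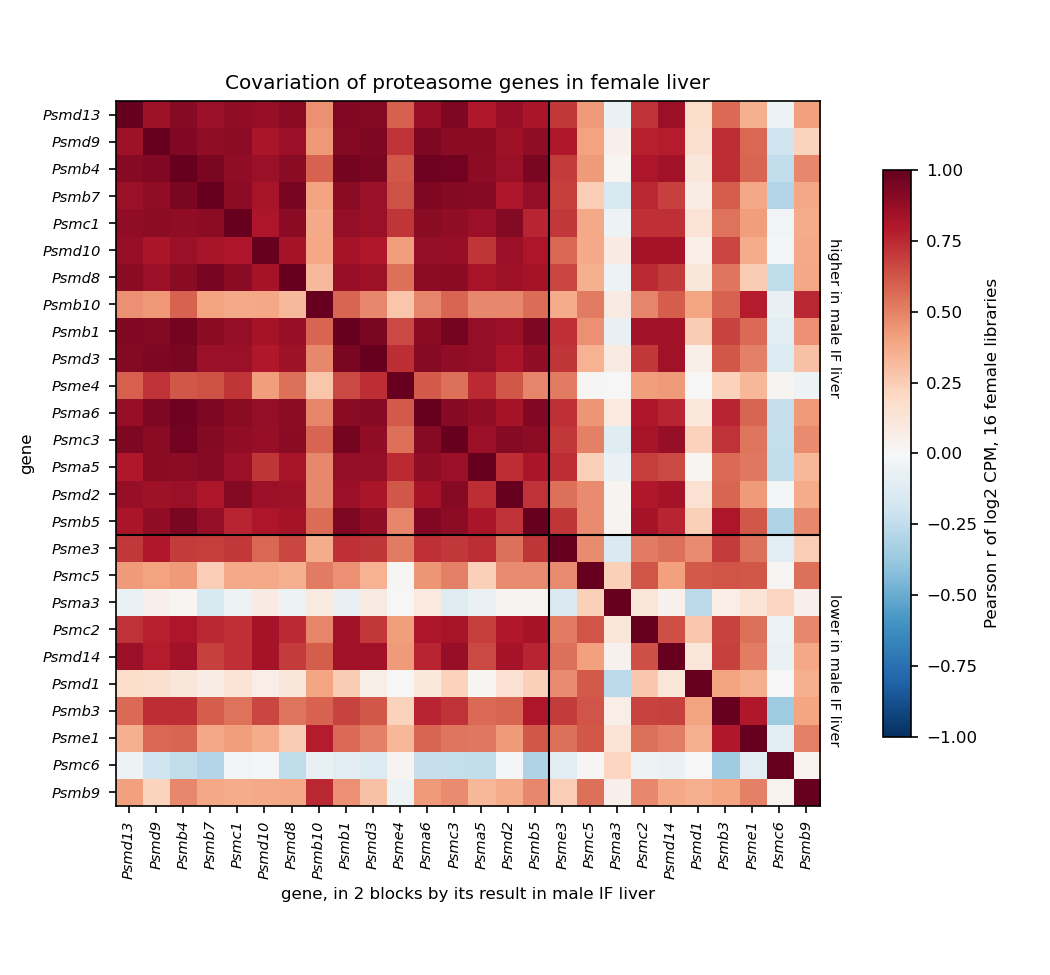
Pearson correlation (color scale) between the 26 members called in male liver, 16 that rose and 10 that fell, over 16 female liver libraries with group means subtracted, no error shown. The block of rising genes had a median of 0.867 and the block of falling genes 0.388.

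As a further description, the promoters of members were searched for 3 short motifs on both strands. RefSeq windows of mouse build GRCm38.p6, 250 bases before to 50 after the start, matched 38 of 45 members with 41 windows; no window was found for Psma8, Psmb1, Psmb2, Psmb7, Psmc3, Psmd3 and Psmd7. TGACNNNGC, a form of the antioxidant response element that NRF1 and NRF2 bind, was in 6 of 41 windows (14.6 percent) and in 12.4 percent of 32851 windows in all. The interferon-stimulated response element, in the form GAAA, any 2 bases, GAAA, was in 4 (9.76 percent) and in 3.44 percent of all. CCAAT was in 14 (34.1 percent) and in 37.4 percent of all.

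TGACNNNGC was found at Psmb5, Psmb6, Psmc6, Psmd12, Psmd9 and Psme4, and the interferon element at Psmb3, Psmd4, Psmd9 and Psme1. Leaving aside Psmb11, which was not tested, TGACNNNGC was in 3 of 13 windows of genes that rose in male liver, 1 of 11 of those that fell and 2 of 16 of those not called. The interferon element was in 1, 2 and 1 of the same windows and CCAAT in 3, 6 and 4. A match is only a description of letters. The windows below belong to the 3 genes with the largest male liver rise among the named ones (Psmd13, Psmd9, Psmb4), to the immune subunit that fell (Psmb9) and to a cutting subunit (Psmb5). Capitals mark TGACNNNGC or the interferon element, and CCAAT is not marked. Psmd9 held 1 match of each, Psmb5 held 1 of TGACNNNGC, and the other windows held none. The regions were Psmd13 at chr7:140882144-140882443 (plus strand), Psmd9 at chr5:123227940-123228239 (plus), Psmb4 at chr3:94886909-94887208 (minus), Psmb9 at chr17:34187281-34187580 (minus) and Psmb5 at chr14:54617946-54618245 (minus).
Psmd13: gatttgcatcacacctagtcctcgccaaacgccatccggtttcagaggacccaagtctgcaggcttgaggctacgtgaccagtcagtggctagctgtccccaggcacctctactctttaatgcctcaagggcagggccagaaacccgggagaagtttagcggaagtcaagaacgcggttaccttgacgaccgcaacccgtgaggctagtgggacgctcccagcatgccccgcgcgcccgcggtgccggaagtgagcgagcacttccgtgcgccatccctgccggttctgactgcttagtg
Psmd9: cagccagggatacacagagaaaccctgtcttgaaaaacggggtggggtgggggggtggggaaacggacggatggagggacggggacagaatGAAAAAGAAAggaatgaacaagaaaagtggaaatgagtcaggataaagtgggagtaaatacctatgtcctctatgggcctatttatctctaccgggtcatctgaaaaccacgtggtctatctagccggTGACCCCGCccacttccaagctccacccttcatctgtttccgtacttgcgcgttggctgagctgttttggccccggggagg
Psmb4: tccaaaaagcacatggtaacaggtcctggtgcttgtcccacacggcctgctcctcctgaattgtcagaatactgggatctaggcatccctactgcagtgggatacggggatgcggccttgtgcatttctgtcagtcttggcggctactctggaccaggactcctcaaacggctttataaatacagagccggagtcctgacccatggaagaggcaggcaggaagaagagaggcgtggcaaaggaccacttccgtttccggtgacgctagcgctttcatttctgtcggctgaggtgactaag
Psmb9: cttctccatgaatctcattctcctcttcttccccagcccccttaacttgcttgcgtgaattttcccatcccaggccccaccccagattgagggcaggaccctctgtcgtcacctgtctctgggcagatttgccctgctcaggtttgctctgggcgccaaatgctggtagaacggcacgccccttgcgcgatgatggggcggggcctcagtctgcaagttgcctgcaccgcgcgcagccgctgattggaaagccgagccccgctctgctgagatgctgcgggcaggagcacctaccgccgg
Psmb5: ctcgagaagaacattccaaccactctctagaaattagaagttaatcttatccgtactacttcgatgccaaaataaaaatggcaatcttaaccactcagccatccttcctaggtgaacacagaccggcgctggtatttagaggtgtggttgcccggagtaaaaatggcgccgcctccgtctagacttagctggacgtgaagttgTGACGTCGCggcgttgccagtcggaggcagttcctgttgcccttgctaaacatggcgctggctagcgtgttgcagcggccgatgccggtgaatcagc

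Partner genes outside the named family were read from fixed lists in male liver, where 44.6 percent of all genes were called (23.5 percent up, 21.1 percent down), so a list with a share near these shows nothing of its own. Of 6 assembly factors of the core 3 rose and 1 fell: Psmg1 (0.72, SE 0.13), the maturation factor Pomp (0.60, SE 0.14) and Psmg3 (0.51, SE 0.12) were the ones that rose. Of 7 other proteins of the particle 2 rose and 1 fell: Uchl5 (0.94, SE 0.14), a ubiquitin hydrolase at the cap, and Sem1 (0.44, SE 0.12), a small lid subunit, rose, while Usp14, another hydrolase, fell by 0.63 (SE 0.11). Of the genes that encode ubiquitin, Ubb rose by 1.01 (SE 0.16) and Rps27a by 0.98 (SE 0.16), while the activating enzymes Uba1 at -0.07 (SE 0.09) and Uba6 at -0.17 (SE 0.25) were not called.

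The shuttle Rad23b fell by 1.01 (SE 0.11), while Ubqln2 (0.82, SE 0.20) and Nploc4 (0.80, SE 0.09), a partner of the unfoldase p97, rose. Faf1, another partner, rose by 0.31 (SE 0.12), and its call was lost without 1 library or another (adjusted p up to 0.113), as was that of Psmg2, the assembly factor that fell (0.107). Among genes of interferon response and antigen processing, B2m, the light chain of class I molecules, fell by 1.23 (SE 0.13), the transcription factor Irf1 by 0.58 (SE 0.20) and the peptide transporter Tap2 by 0.58 (SE 0.14). Gbp2, an interferon-induced GTPase, rose by 1.82 (SE 0.55), but IF mouse 16 had 16.5 CPM and the other IF mice 0.795 to 2.96 CPM. Without that library it was not called at 0.88 (SE 0.36, adjusted p = 0.0534), and Erap1, which rose by 0.37 (SE 0.13) with it, was not called at 0.29 (SE 0.12, adjusted p = 0.0538).

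Both atrophy ligases tested in male liver rose, Fbxo32 by 0.98 (SE 0.22) and Fbxo30 by 0.52 (SE 0.15). A list of 4 genes held that of NRF1, which controls proteasome genes, and that of the separate factor NRF2. Of these 4, edgeR called 0 in male liver, with 0 at an unadjusted p under 0.05. Markers of liver, muscle and cortex itself showed 1 of 4 lower (Apoa1, -0.48, SE 0.13), 0 of 1 and 1 of 1 higher (Syt1, 0.61, SE 0.18) there.

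In male muscle, where 23 percent of all genes were called, the ligases that mark wasting rose, Fbxo32 by 1.23 (SE 0.16) and Trim63 by 1.14 (SE 0.18), 2 of 3 tested. Of the 4 genes in the list with NRF1 and NRF2, 2 rose and 1 fell. Nfe2l2, which encodes NRF2, rose by 0.74 (SE 0.07) and the protease Ddi2 by 0.48 (SE 0.07). Nfe2l1, which encodes NRF1, fell by 0.32 (SE 0.05). Ubb, a ubiquitin gene, fell by 0.21 (SE 0.07), while Rps27a at 0.34 (SE 0.19), Uba1 at -0.10 (SE 0.05) and Uba6 at 0.37 (SE 0.15) were not called. Ubqln2 rose by 0.40 (SE 0.07). Leukocyte markers had 3 of 10 lower (Cd3e, Lyz2 and Csf1r), endothelial 1 of 4 (Kdr) and muscle 2 of 4 (Ckm and Mylpf). Leaving out 1 library or another ended the muscle calls of Ubb (adjusted p up to 0.0676), Csf1r (0.0871), Kdr (0.0578) and Ckm (0.0785).

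In male cortex, where 7.21 percent of all genes were called, Nploc4 rose by 0.26 (SE 0.07), and the leukocyte marker Ptprc fell by 0.74 (SE 0.21), 1 of 9. No other partner or marker gene named above was called there. In females edgeR called none of these partner and marker genes in any of the 3 tissues.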

How the data were processed

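Poly-A RNA of liver, muscle and cortex was sequenced, and the deposited table holds raw read counts per gene that the authors made by aligning to the mouse genome GRCm39 with Hisat2 and counting with featureCounts. The strand setting and the handling of reads that map to several places are not given in the sources used here. All 96 libraries were read and 95 used; the library labelled cortex of AL male mouse 1 was left out because its sex genes do not match its label. Members and gene lists were chosen with earlier results of these data known.

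Levels are CPM on library totals, with a median total of 36132954 counts. Each tissue and sex was fitted apart with quasi-likelihood tests in edgeR 4.0.16 (R 4.3.3, limma 3.58.1), after TMM scaling and the filter of that package (minimum count 10, minimum total 15), and p-values were adjusted over all tested genes by Benjamini and Hochberg at 0.05. Differences between tissues used a fit over 3 tissues of each sex, and differences between the sexes a fit over both sexes of a tissue. Standard errors are the log2 change over the square root of F. Group values were to be given for the 5 called members with the largest change per diet comparison and for the cutting subunits with their immune versions; other members given with group values were picked after the data were seen, to show each role. Of each list at most 3 called genes were named by size of change, apart from markers, ubiquitin and interferon genes and genes whose call rested on 1 library. AL and IF mice share only a replicate number, and pairs by that number had median correlations from -0.165 to 0.207. Groups were therefore compared unpaired. Libraries of 1 mouse number in 2 tissues had median correlations from 0.00411 to 0.0318. Alternatives were DESeq2 1.42.0, other scaling, no filter, replicate or mouse blocks, leaving out libraries, and covariates for length slope and erythrocyte and leukocyte levels that were added after the data were seen. The fits were tested on simulated data. Figures used Python 3.11.15 and matplotlib 3.10.9. Protein data were not used here.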

Additional observations from a re-analysis of the deposited data

Results flagged for a closer look

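Library values that stood outside the rest of their group were found in 9 of 120 groups (10 members in 12 groups) with Dixon's ratio of gap to range at its 0.05 level, at which chance flags about 1 in 20 groups. In male liver these were Psmb7 in AL mouse 1 (18.3 CPM), and Psmb9 (51.6 CPM) and Psmb8 (107.66 CPM) in IF mouse 16. In male muscle they were Psmb9 in IF mouse 12 (9.51 CPM, highest) and Psmb6 in IF mouse 11 (160.53 CPM, lowest). In females they were Psmd13 (104 CPM) and Psmb7 (94.7 CPM) in cortex of IF mouse 38, Psmd9 in muscle of AL mouse 26 (30.9 CPM) and Psmb7 in muscle of IF mouse 40 (200.45 CPM).

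Among the same 10 members, the diet effect differed between the sexes for several, as log2 differences of females minus males. In liver 18 of all 44 members tested differed, where 23.7 percent of all genes did. Those of the 10 were Psmb3 (0.66), Psmb4 (-1.07), Psmb7 (-1.18), Psmb10 (-0.65), Psmd13 (-1.96) and Psmd9 (-1.45). In muscle 6 of 43 differed, where 14.2 percent of all genes did, so that count is near the share of all genes. Those of the 10 were Psmb3 (0.33), Psmb5 (0.40), Psmd13 (0.35) and Psmd9 (0.36). In males the diet effect differed between cortex and liver for 24 of 44 members, where 30.1 percent of all genes differed. Between muscle and liver it differed for 23 of 44, where 33.7 percent of all genes did.

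The library left out, labelled cortex of AL male mouse 1, had 10219 Xist counts.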

How the results depend on the processing

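Over 19 counts of called members, 105 values under other scaling, tests, filters, blocks and fits were computed, of which 97 stayed within 1.5 times and 8 did not. Of 36 further values, from covariates, a fold minimum or leaving out 1 library, 24 did and 12 did not. These totals ignore direction, so sex by diet in muscle (6 up, 0 down) counts as kept under library totals alone (0 up, 5 down). The calls in male liver fell from 26 to 14 with the erythrocyte level as covariate and to 13 for changes of at least 1.5-fold, both added after the data were seen. In male muscle 2 calls became 8 with library totals alone, 4 with DESeq2, 1 without AL mouse 2 and IF mouse 10 and 0 in a fit over 3 tissues, and leaving out 1 library at a time gave 0 to 5. In male cortex 0 became 1 with RLE size factors and 1 with DESeq2, in female muscle 0 became 1 with DESeq2, and for sex by diet in muscle 6 became 3 without the filter. Leaving out 1 library gave 22 to 25 calls in male liver.

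Psmb6 in male liver turned to -0.015 without AL mouse 2 and IF mouse 10, and was 0.25 (adjusted p = 0.0488) with the length slope as covariate. Psmb8 turned to -0.12 with the erythrocyte level, to -0.39 (adjusted p = 0.0247) with the leukocyte level and to -0.14 without IF mouse 16, the low end of a range up to 0.29 when 1 library at a time was left out. Psmb9 was -0.87 (adjusted p = 0.147) with the length slope. The cause was not tested.

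With the replicate number or the mouse as a block, 0 of 19 counts moved by over 1.5 times: male liver had 24 calls, male muscle 2, male cortex 0 and sex by diet 18, 5 and 0 in liver, muscle and cortex. AL and IF mice of 1 number share only that number. Age, strain, schedule and handling of females are not given in the sources used here.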
